A study of Arabidopsis thaliana and Ginkgo biloba and Brassica rapa with 14 samples.

Results

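The methionine tRNAs of plants were examined in the deposited tables of transfer RNA (tRNA) abundance, cytosine methylation and gene loci. Members were chosen by name only, as every isodecoder that starts with Met, whatever its genomic origin. This gave 7 of the 100 consensus isodecoders of the A. thaliana reference list, 28 of its 687 gene loci and 2 of the 59 rows of the methylation table. By label 2 isodecoders were initiators (Met-i), 3 were elongators (Met-e) and 2 carried only a number. An isodecoder here is a consensus sequence that stands for tRNA genes of the same anticodon and of identical or highly similar sequence, and N, C and M after its name mean that the sequence occurs in the nuclear, chloroplast or mitochondrial genome.

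Gel purified small RNA came from wild type plants of 6 species, without mutants or treatments. A. thaliana was of the Columbia accession, as seedlings of 10 days, with 1 RNA-seq library and 3 libraries of RNA bisulfite sequencing (RBS-seq), in which unmodified cytosines are read as thymine and resistant cytosines count as candidate 5-methylcytosine (m5C). B. rapa, T. durum, G. biloba, C. taxifolia and N. oculata had 1 RBS-seq library each. The tissues were flag leaf in T. durum, leaf by the labels and shoot apex by the methods in B. rapa and G. biloba, frond in the green alga C. taxifolia, and cells in log phase in the single-celled alga N. oculata.

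In the plant cytosol and in chloroplasts, separate initiator and elongator methionine tRNAs both read AUG. The initiator places the first methionine directly in the P site of the ribosome, and the elongator delivers methionine within the chain from the A site. In the cytosol the initiator starts with methionine, whereas in chloroplasts and mitochondria, as in bacteria, the methionine on the initiator is formylated. Initiators are set apart by features of their sequence, among them the bases at positions 1 and 72 that close the acceptor stem, a run of G:C pairs in the anticodon stem and, in the eukaryotic cytosol, A54 and A60 in the T loop.

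All 7 consensus sequences are shown because the initiator and elongator features can be read in them directly. They are given 5′ to 3′ as listed by the authors from TAIR10, with the anticodon and position 48, the base before the T stem, in capitals.

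tRNA Met-i(CAT), N: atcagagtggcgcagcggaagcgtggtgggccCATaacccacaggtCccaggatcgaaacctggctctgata
tRNA Met-e(CAT), N: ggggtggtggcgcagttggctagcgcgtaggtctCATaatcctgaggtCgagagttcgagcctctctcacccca
tRNA Met-e(CAT)1, N: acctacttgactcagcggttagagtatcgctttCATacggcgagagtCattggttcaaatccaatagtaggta
tRNA Met-i(CAT), C: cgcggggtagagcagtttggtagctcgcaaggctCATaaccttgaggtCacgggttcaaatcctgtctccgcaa
tRNA Met-e(CAT), C: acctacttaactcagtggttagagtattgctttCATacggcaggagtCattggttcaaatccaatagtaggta
tRNA Met(CAT)1, M, N: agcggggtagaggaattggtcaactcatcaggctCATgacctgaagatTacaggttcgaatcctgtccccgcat
tRNA Met(CAT)2, M, N: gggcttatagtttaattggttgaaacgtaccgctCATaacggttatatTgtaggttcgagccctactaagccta

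The sequences were 72 to 74 bases long, and their anticodon and T stems could be placed in 7 of 7. Nuclear tRNA Met-i(CAT) carried A1 opposite T72, GGG at 29 to 31 opposite CCC at 39 to 41, and A54 with A60. Of the 93 isodecoders whose T stem could be placed, 8 had A1 with T72, among them chloroplast tRNA Met-e(CAT) and nuclear tRNA Met-e(CAT)1. That pair was therefore not particular to the initiator. GGG opposite CCC was in 2 of the 95 isodecoders with a placed anticodon loop, the other being the chloroplast tRNA Gln(TTG). A54 with A60 was in 2 of the 93, the other being the nuclear tRNA Ala(AGC). This initiator also had C33, where the other 94 of the 95 isodecoders with a placed anticodon loop had T33. It was the only methionine isodecoder with cytosines at 48, 49 and 50 in a row, a run found in 13 of the 93.

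Chloroplast tRNA Met-i(CAT) had another set of features. Its C1 and A72 do not pair, and it had AGG at 29 to 31 opposite CCT at 39 to 41, with T54 and T60. Unpaired bases at 1 and 72 occurred in 4 of the 93 placed isodecoders, and 2 of the 4 were methionine tRNAs. The second was tRNA Met(CAT)1, M, N, which had A1 and A72 and the same bases at 29 to 31 and 39 to 41 as the chloroplast initiator. The 3 isodecoders labelled as elongators and tRNA Met(CAT)2 paired at 1 and 72, as did the nuclear initiator, with G:T counted as a pair. tRNA Met(CAT)2 had G1 opposite T72 and CCG opposite CGG in the anticodon stem.

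Identity was not always higher within a function or within a genome. Over the 21 pairs, identity in a global alignment ranged from 46.7% to 93.2% with a median of 55.7%. The nuclear and chloroplast initiators were 62.2% identical and the nuclear and chloroplast tRNA Met-e(CAT) were 46.7% identical, whereas initiator and elongator were 60.3% identical in the nucleus and 53.2% in the chloroplast. The chloroplast initiator was closest to tRNA Met(CAT)1, M, N, at 76.0%, and was 69.3% identical to nuclear tRNA Met-e(CAT). For 3 of the isodecoders a tRNA of another amino acid was closer than any methionine tRNA. Nuclear tRNA Met-i(CAT) was 64.9% identical to nuclear tRNA Val(CAC), and nuclear tRNA Met-e(CAT) was 70.9% identical to mitochondrial tRNA Lys(TTT). tRNA Met(CAT)2 was also nearest to tRNA Lys(TTT), at 64.0%, and 10 isodecoders of other amino acids were closer to it than its nearest methionine tRNA, nuclear tRNA Met-e(CAT) at 60.5%.

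**Figure D1:**
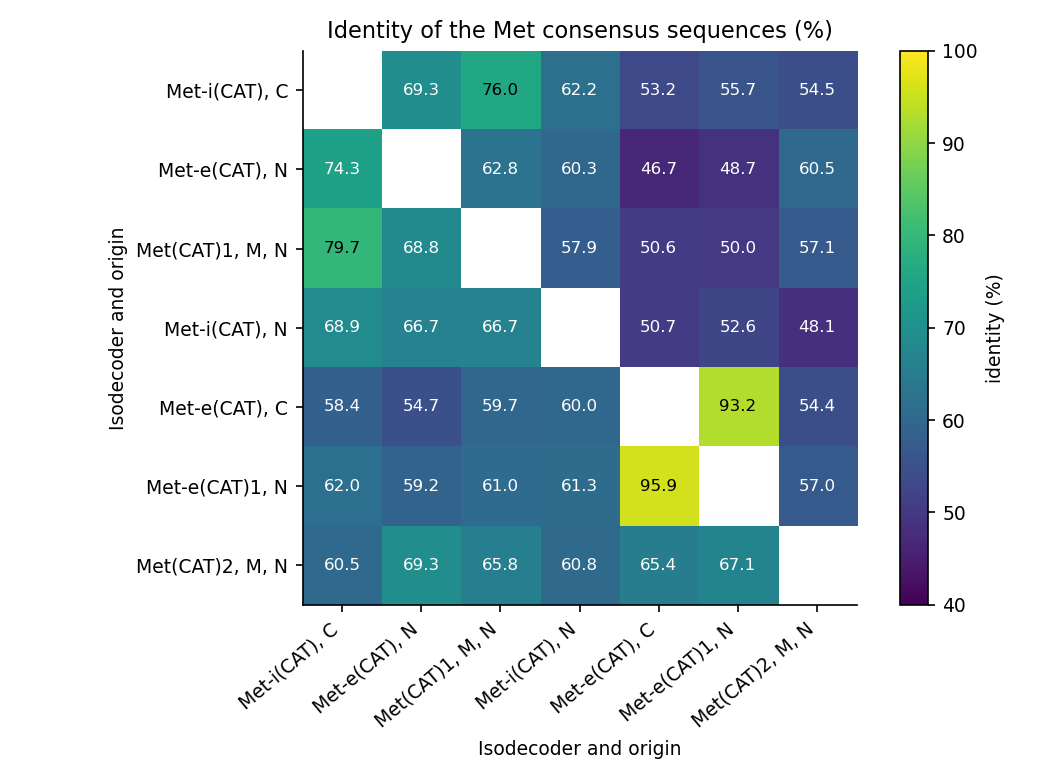
Percent identity for each pair of the 7 methionine consensus sequences, with both axes naming isodecoder and origin. The upper right triangle gives the sequences as listed and the lower left the same sequences with every cytosine converted to thymine, as RBS-seq reads are aligned; the chloroplast tRNA Met-e(CAT) and nuclear tRNA Met-e(CAT)1 stand out at 93.2% and 95.9%.

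The most alike pair crossed the genomes. Nuclear tRNA Met-e(CAT)1 and chloroplast tRNA Met-e(CAT) were both 73 bases long and differed at 5 bases, A9G, T16C, T28C, A42G and G43A, counted from the 5′ end with the chloroplast base first. The pair at 28 and 42 was T with A in the chloroplast sequence and C with G in the nuclear one, so that both paired. At 27 and 43 the chloroplast sequence had T with G and the nuclear one T with A. The last 30 bases, from 44 to 73, were the same in both, so reads from that stretch alone cannot be told apart. The longest run that the chloroplast initiator shared with any isodecoder was 21 bases, from 47 to 67, with the chloroplast tRNA Pro(TGG) at 809 RPM.

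Among the loci of the list, 22 of the 28 were nuclear only. Nuclear tRNA Met-i(CAT) stood for 10 loci, of which chromosomes 1, 2 and 3 held 2 each and chromosome 5 held 4. Nuclear tRNA Met-e(CAT) stood for 11 loci, with 5 in chromosome 1, 2 each in chromosomes 2 and 5 and 1 each in chromosomes 3 and 4. Each of the 10 initiator loci spanned 72 bases, the whole consensus, whereas the 11 elongator intervals spanned 36 to 38 bases and so cover only part of the 74-base consensus. Intervals under 75% of the consensus length were 84 of 687 in the whole list, and 70 of the 84 belonged to the nuclear tRNA Tyr(GTA). In plants the elongator methionine and tyrosine tRNA genes are known to carry introns.

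In the organelles, the chloroplast initiator gene ATCG00320 lay at 36704 to 36777 and the chloroplast elongator gene ATCG00460 at 52056 to 52128 of the chloroplast genome (TAIR10). tRNA Met(CAT)1 had a mitochondrial locus, ATMG00250 at 71453 to 71526, and a nuclear one, AT2G07758 at 3462078 to 3462151 of chromosome 2. tRNA Met(CAT)2 likewise had ATMG00460 at 127021 to 127094 of the mitochondrial genome and AT2G07794 at 3383404 to 3383477 of chromosome 2. tRNA Met-e(CAT)1 had the locus AT2G07755 at 3328670 to 3328742 of chromosome 2. All are annotated as tRNA genes by the list, and of the 28 loci the 24 on nuclear chromosomes were found in RefSeq, each as a tRNA gene. These 3 nuclear loci fell within 133482 bases of chromosome 2, a region known to hold a large insertion of mitochondrial DNA. The span held 4 further tRNA loci, and the sequences of 4 of these 4 also occur in the mitochondrial genome. With the methionine loci, which set the ends of the span, 6 of its 7 loci had such a sequence. The exception was tRNA Met-e(CAT)1, listed as nuclear only. Other loci listed as nuclear only lay on both sides of the span, among them those of tRNA Ser(GCT)1. Over chromosome 2 as a whole, the span included, 17 of 96 loci had a sequence that also occurs in the mitochondrial genome.

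**Figure D2:**
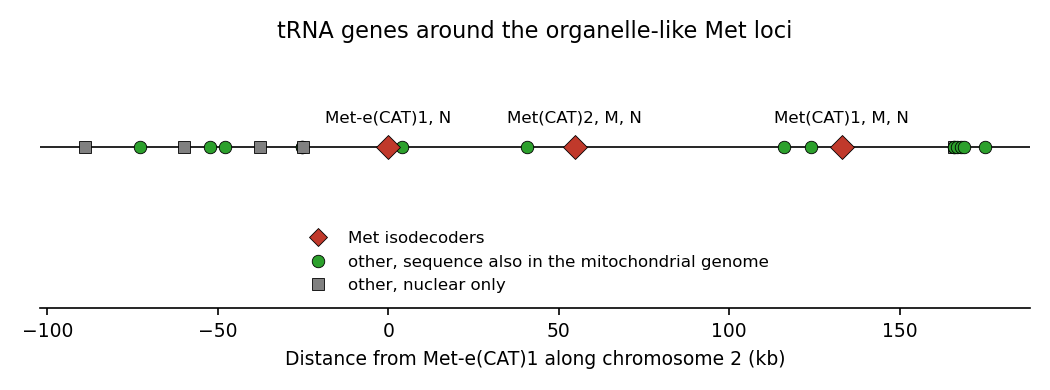
tRNA loci of the reference list along a stretch of chromosome 2, by their distance in kb from the locus of tRNA Met-e(CAT)1. Diamonds are methionine loci, circles other loci whose sequence also occurs in the mitochondrial genome and squares other loci found only in the nucleus; every locus between the diamonds is a circle.

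Abundance was read from the 1 A. thaliana RNA-seq library, in reads scaled to a fixed library size (RPM). The RPM values were whole multiples of about 0.34 RPM, which gave the reads behind each value. With 1 library there is no replicate error, and the 95% intervals below, exact Poisson or exact binomial, cover counting error only. More tRNA per cell and more cells or organelles that hold it cannot be told apart in whole seedlings. Whether all isodecoders were recovered equally well in making the library was not tested, so ratios between isodecoders are ratios of reads.

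Chloroplast tRNA Met-i(CAT) had 4602 RPM (interval 4525 to 4681, from 13456 reads) and ranked 6 of 100. Its level lay above the 4307 RPM of the next lower isodecoder, the chloroplast tRNA Glu(TTC), and below the 7281 RPM of the next higher, the mitochondrial tRNA Ser(GCT), and the counting intervals of the 3 did not overlap. Within the 24 chloroplast isodecoders it ranked 4, against their median of 77.6 RPM.

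No other methionine tRNA came near this level. Nuclear tRNA Met-e(CAT) had 3.08 RPM (1.41 to 5.84, 9 reads). tRNA Met(CAT)1, M, N had 2.05 RPM (0.753 to 4.47, 6 reads) and nuclear tRNA Met-i(CAT) 1.71 RPM (0.555 to 3.99, 5 reads). The intervals of these 3 overlapped, so their levels cannot be ordered at this depth. Chloroplast tRNA Met-e(CAT) had 1.37 RPM (0.373 to 3.50, 4 reads). This was the lowest value of the 24 chloroplast isodecoders, though not apart from that of tRNA Ile(CAT)1 beyond counting error (2.25 times as many reads, interval 0.628 to 10.0). Nuclear tRNA Met-e(CAT)1 had 1 read, or 0.34 RPM (0.00866 to 1.91), and since it shares 30 bases with the chloroplast elongator the assignment of that read is uncertain. tRNA Met(CAT)2 had 0 reads, and its upper limit was set at 3 reads, or 1.03 RPM, in place of an exact interval. At least 5 RNA-seq reads were found for 4 of the 7 methionine isodecoders, and for 70% of all 100. The authors set a minimum of 5 reads for methylation in RBS-seq, so these counts are not their detection calls.

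**Figure D3:**
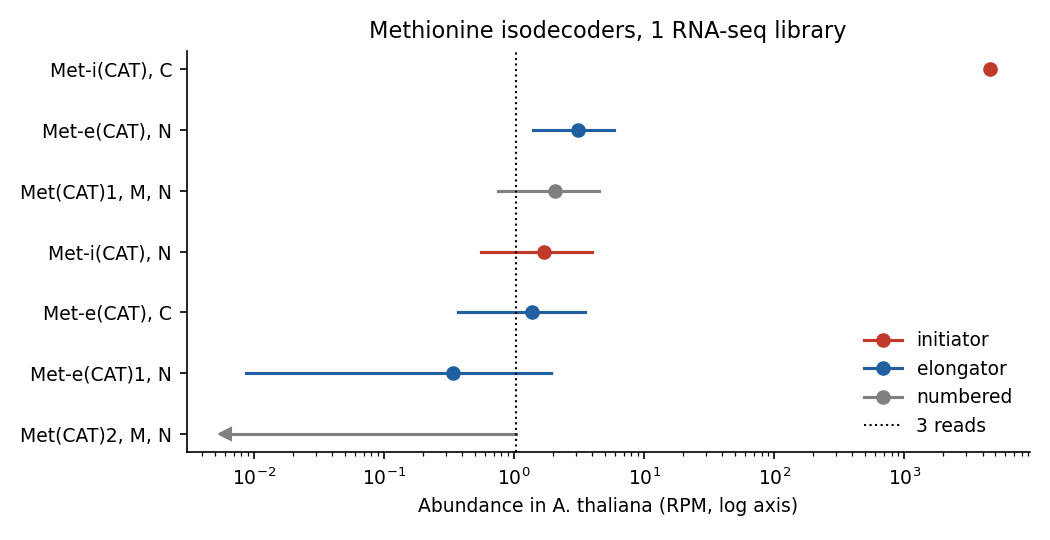
Abundance of the 7 methionine isodecoders in A. thaliana in RPM on a log axis, with points for the value and bars for the 95% counting interval from 1 library. The chloroplast initiator at 4602 RPM stands alone, the other bars overlap except those of nuclear tRNA Met-e(CAT) and tRNA Met(CAT)2, the arrow marks tRNA Met(CAT)2 at 0 with its bar up to the limit of 3 reads, and the dotted line marks 3 reads.

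The initiator and the elongator were compared within each origin. In the chloroplast the initiator had 3364 times the reads of the elongator (interval 1314 to 12348), or 3319 times per base of the consensus. In the nucleus the initiator had 0.500 times the reads of both elongators together (0.134 to 1.61), 5 against 10 reads, and 0.556 times those of tRNA Met-e(CAT) alone (0.146 to 1.85). The chloroplast ratio therefore lay far outside counting error, and the nuclear ratio did not differ from 1 beyond it. Per 100 bases of consensus, the levels were 6220 RPM for the chloroplast initiator, 1.88 RPM for the chloroplast elongator, 2.38 RPM for the nuclear initiator and 4.16 RPM for nuclear tRNA Met-e(CAT).

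Between origins, the chloroplast initiator had 2691 times the reads of the nuclear one (1153 to 8290). The chloroplast tRNA Met-e(CAT) had 0.444 times the reads of the nuclear tRNA Met-e(CAT) (0.10 to 1.59), with 1 as a possible ratio. The excess of chloroplast over nuclear methionine tRNA, 897 times for all labelled forms (544 to 1604), thus came from the initiator. For all isodecoders, the median level was 77.6 RPM in the chloroplast set and 2.39 RPM in the 58 of the nuclear set. The nuclear methionine median of 1.71 RPM over 3 isodecoders lay close to the latter.

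All methionine isodecoders together took 2.33% of the 579400 tRNA reads (2.29 to 2.37%). Chloroplast tRNA Met-i(CAT) was 99.8% of these reads (99.7 to 99.9%). Methionine made up 22 of the 612 nuclear loci, or 3.59%, but 15 of the 3743 reads of nuclear isodecoders, or 0.401% (0.224 to 0.660%). The nuclear glutamate tRNAs alone took 2648 of the 3743. With 0.682 reads per nuclear locus methionine ranked 14 among the 21 amino acid classes of the list. The 10 loci of the nuclear initiator gave 5 reads and the 1 listed locus of the chloroplast initiator gave 13456, but a listed chloroplast locus is present in every copy of the plastid genome, and those copies were not counted here.

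**Figure D4:**
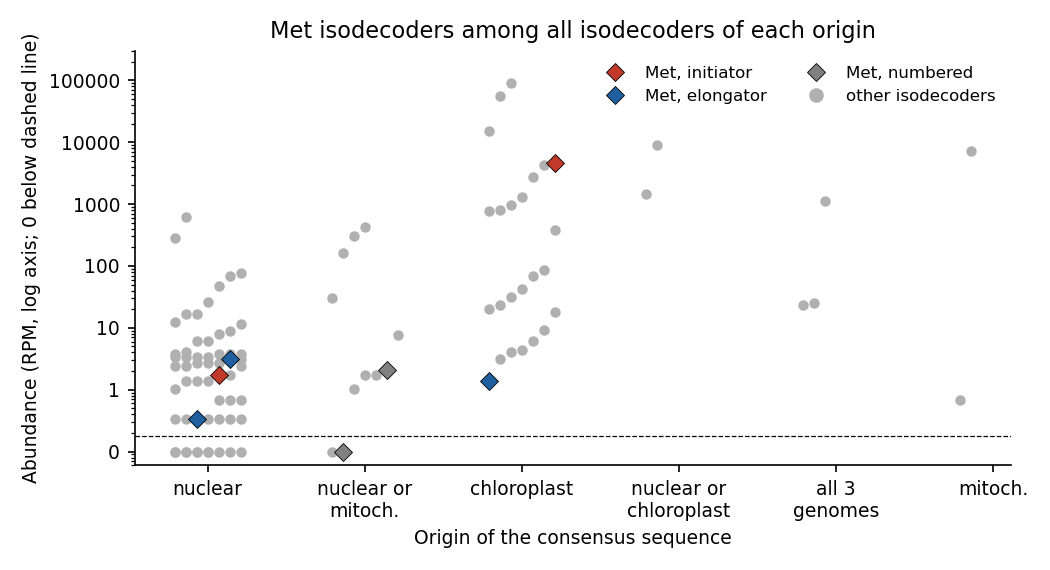
Abundance of all 100 isodecoders in RPM on a log axis by origin, with values of 0 below the dashed line and diamonds for the methionine isodecoders. Points are single values from 1 library. The 2 chloroplast methionine tRNAs sit near opposite ends of the chloroplast set, at 4602 and 1.37 RPM, while the nuclear ones lie amid the nuclear set.

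The tRNA genes listed nearest to the chloroplast methionine genes were those of glycine and valine tRNAs. Chloroplast tRNA Gly(GCC), whose gene lay 143 bases from that of the initiator, had 2738 RPM. Chloroplast tRNA Val(TAC), whose listed interval ended 184 bases from the elongator gene, had 86.9 RPM.

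The CAT anticodon is also given to chloroplast isoleucine tRNAs. In bacteria and chloroplasts a tRNA with this anticodon reads an isoleucine codon once its C34 is modified to lysidine, so the label by amino acid matters. Both sequences are shown with the anticodon and position 48 in capitals.

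tRNA Ile(CAT)1, C: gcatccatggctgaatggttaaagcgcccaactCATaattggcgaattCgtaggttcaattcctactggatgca
tRNA Ile(CAT)2, C: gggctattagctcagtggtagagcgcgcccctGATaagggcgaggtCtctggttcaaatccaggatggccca

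tRNA Ile(CAT)1 held CAT in its anticodon loop and had 3.08 RPM (1.41 to 5.84, 9 reads). Its identity to the methionine isodecoders ranged from 51.2% with the nuclear initiator to 62.8% with tRNA Met(CAT)2. The latter value lay above the 60.5% between tRNA Met(CAT)2 and its nearest methionine tRNA. The amino acid of tRNA Met(CAT)2 is taken from its label and was not tested. The sequence labelled tRNA Ile(CAT)2 held GAT at the anticodon, against its label, and had 4.45 RPM (2.37 to 7.60, 13 reads). Its name is kept here as listed.

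Methylation is given as the percent of reads that kept a cytosine at a structural position, with 20% as the threshold for a methylated site. The depth behind a percent is unknown beyond the authors' minimum of 5 reads, each A. thaliana value is the authors' mean, and no test was made. The table lists sites that reached the threshold in at least 1 species. Of its 59 sites 2 were in methionine tRNAs, both listed as chloroplast. That origin is putative outside A. thaliana, and organellar sequences copied into a nuclear genome cannot be told apart from it here. No nuclear or mitochondrial methionine site is in the table. This does not show that these tRNAs lack m5C, since the table does not tell a site below the threshold from one without coverage. Their few A. thaliana reads were counted in the RNA-seq library, and their depth in RBS-seq is unknown.

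At C48 of chloroplast tRNA Met-i(CAT) the value was 63% in N. oculata. It was 0% in each of G. biloba, C. taxifolia, T. durum, B. rapa and A. thaliana. All 6 species thus had a value, and 1 of the 6 reached the threshold. In A. thaliana this was the isodecoder with 13456 RNA-seq reads, and position 48 of its consensus is a cytosine followed by A49. Of the sites with a value, 74.1% reached the threshold in N. oculata, 83.0% in A. thaliana, 82.6% in B. rapa, 93.2% in T. durum, 73.1% in C. taxifolia and 87.9% in G. biloba, but these shares rest mostly on nuclear sites that were listed because some species reached the threshold. Among the sites that are not nuclear only, 0 of 4 reached it in A. thaliana, 0 of 4 in B. rapa, 0 of 4 in G. biloba and 0 of 2 in C. taxifolia, the initiator C48 included.

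At C32 of chloroplast tRNA Met-e(CAT), in the anticodon loop, the value was 100% in N. oculata and not determined in the other 5 species. This was the only site at position 32 in the table. The A. thaliana chloroplast consensus has T32, as has tRNA Met-e(CAT)1, while the other 5 methionine isodecoders have C32. For species other than A. thaliana, reads were aligned to the A. thaliana list and to tRNA sequences of the closest relative with known ones, which were not analysed here, so the printed A. thaliana sequence need not be that of the methylated molecule.

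**Figure D5:**
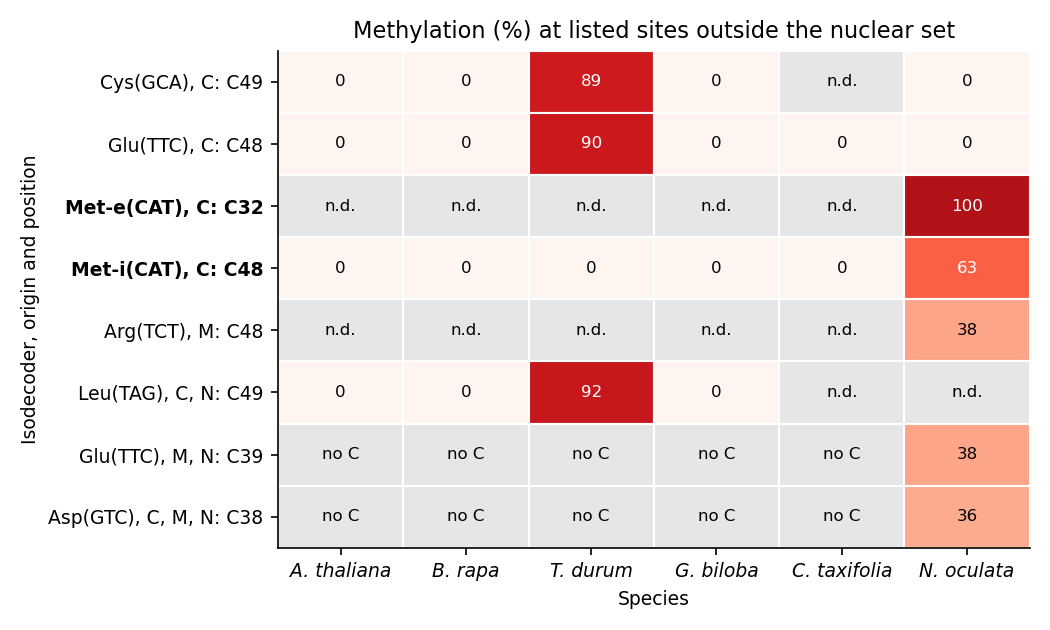
Percent methylation in each species at the 8 listed sites of tRNAs that are not nuclear only, with darker red for higher values, n.d. for not determined and no C where the species has another base. The methionine sites, in bold, are at 63% and 100% in N. oculata, and the initiator site is at 0% in the other 5 species.

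Both methionine values at the threshold came from N. oculata. This was also so for 3 of the 6 other sites outside the nuclear set, and in all 5 of the 7 such sites with an N. oculata value reached 20%. In T. durum 3 of 4 did, each at a site other than the methionine ones. Among the 9 C48 sites with an N. oculata value, the initiator's 63% was the third highest, just below the nuclear tRNA Asp(GTC) at 64% and below the nuclear tRNA Ser(GCT) at 84%. The chloroplast tRNA Glu(TTC) C48 was at 0% there and at 90% in T. durum, the reverse of the initiator.

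No site named by likeness shared the high N. oculata value of the initiator C48. Of the 25 sites with values in at least 5 shared species, the smallest mean absolute difference, 10.8 percentage points over 5 species, was that of C68 of nuclear tRNA Lys(CTT), which was not determined in N. oculata, so that only 0% values of the initiator entered. C48 of nuclear tRNA Glu(CTC), at 25.0 points over 5 species, and C48 of chloroplast tRNA Glu(TTC), at 25.5 points over 6, were both at 0% in N. oculata.

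The methionine isodecoders differed in which of the positions methylated in other tRNAs hold a cytosine. C48 was in 5 of the 7, against 73 of the 93 placed isodecoders in all (78.5%), and the 2 without it were tRNA Met(CAT)1 and tRNA Met(CAT)2, which had T48. C49 was in 1 of 7, against 26.9% of all, and C50 in 3 of 7, against 39.8%. C72 was in 1 of 7, the nuclear tRNA Met-e(CAT), against 77.4% of all. C38 was in the chloroplast tRNA Met-e(CAT) and tRNA Met-e(CAT)1, against 16.8% of all. C68 was in 3 of 7, against 24.7% of all. C34 is the first base of the CAT anticodon and so was in 7 of 7, against 28.4% of all. A cytosine at a position is a description of the sequence and not a measured methylation.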

How the data were processed

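Reads were trimmed, quality filtered and aligned by the authors in CLC Genomics Workbench (version not given in the sources used here). RNA-seq abundances were deposited by the authors as RPM against 100 consensus sequences from TAIR10 genes. Methylation was deposited by the authors as percent, reads with cytosine among reads with cytosine or thymine, aligned to consensus sequences converted in silico, with an unmethylated Renilla luciferase RNA as conversion control. A. thaliana values were averaged by the authors over 3 libraries. The reference list was deposited with sequences and coordinates.

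Reads were recovered from RPM: 2923785 was the only total of those between 2898550 and 2985075 that gave whole reads for all 87 values above 0 to within 0.005 RPM, with the lowest taken as 1 read. Gap marks and spaces were removed from the consensus sequences. Positions 27 to 43 were counted from the anticodon (at least 3 of 5 stem pairs) and 48 to 73 from the 3′ end (at least 4 of 5 T stem pairs). Identity is the share of alignment columns (match 1, mismatch -1, gap opening -2, extension -1). Loci were matched to RefSeq by identifier. The functions were tested on simulated data. Python 3.11.15, NumPy 2.4.6, pandas 2.3.3, SciPy 1.17.1, Biopython 1.88 and Matplotlib 3.10.9 were used.

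Named were all methionine isodecoders, isoleucine isodecoders labelled CAT, the nearest sequences, the neighbours in abundance and the 3 most alike sites; sequences sharing the longest runs, the gene neighbours and comparison sites were added after their values were seen. Members and lists were chosen with earlier results of these data known. Abundances of the other species were not analysed here.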

Additional observations from a re-analysis of the deposited data

Results flagged for a closer look

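C48 of chloroplast tRNA Met-i(CAT) was at 63% in N. oculata and at 0% in each of the other 5 species, so that N. oculata lay farther from the rest than the 95% critical value of Dixon's ratio allows for 6 values. With the other values all at 0 any value above 0 would be marked, and the site is listed only because a species reached the threshold, so the mark adds nothing to the values themselves. By chance about 1 in 20 groups is marked where neither holds. Of the 37 listed sites with values in at least 4 species, 8 were marked by the same ratio. Each species had 1 value without replicate error, and the depth behind the 63% is unknown.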

How the results depend on the processing

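No paired analysis was possible because the tables hold 1 RNA-seq library and, for A. thaliana RBS-seq, only the authors' mean, and leaving out a replicate was not possible for the same reason. The share of methionine isodecoders in all tRNA reads moved from 2.33% to 8.78% without the 2 most abundant isodecoders, as the total shrank. The ratio of nuclear to chloroplast methionine reads, 0.00111, moved to 0.0235 and 0.0166 as a ratio of geometric means over isodecoders. These ratios were taken back from mean log2 values with pseudocounts of 1 and 0.1 RPM. Alternatives chosen after seeing the data show the part of the chloroplast tRNA Met-i(CAT). Without it the methionine share was 0.0044%, the share of initiator forms in methionine reads 20% in place of 99.85%, and the ratio of nuclear to chloroplast reads 3.75, which sets 3 nuclear forms against 1 chloroplast form; elongator against elongator the chloroplast had 0.444 times the nuclear reads, within counting error of 1. With a threshold of 70% for a methylated site, 1 value in place of 2 remained. The other 13 alternative values stayed within counting error, the spread of the pairs or 1.5 times the count; among them were the nuclear initiator to elongator ratio per locus, at 0.60, C48 counted from the T loop, at 5, and the median identity without gaps, at 62.9%. Below about 5 reads, as for 3 of the 7 methionine isodecoders, the levels cannot be ordered. The same holds among the 3 with 5 to 9 reads.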
